A study of Mus musculus with 9 samples.

Results

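The 9 genes described here belong to eosinophils, basophils and mast cells: Prg2, Prg3, Epx, Cpa3, Mcpt8, Hdc, Fcer1a, Ms4a2 and Gata2. They were followed in mouse leukemia stem cells carrying short hairpin RNAs. The genes were taken as a list of names, 9 of the 19057 genes that the platform annotation names, and every probe annotated with 1 of these symbols was included. This gave 13 of the 45281 probes of an Illumina bead array. Of these, 8 probes from 6 genes were among the 13641 probes detected often enough to be tested. A probe counted as detected on an array where its detection p, the p-value that its bead signal exceeds that of negative control beads, was under 0.05, and it was tested if that held on at least 3 of the 9 arrays.

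The study asked how leukemia stem cells respond to knockdown of Csnk1a1, which encodes casein kinase 1 alpha. There were 3 arrays of cells with hairpin 97 against Csnk1a1, 3 of cells with hairpin 94 against the same gene, and 3 of cells with a control hairpin against luciferase (Luc), a firefly gene that mouse cells lack. All 9 samples were total RNA of leukemia cells driven by the MLL-AF9 fusion oncogene, on a C57BL/6 background with the Actin-dsRed genotype. They were sorted from bone marrow as Hoechst low, dsRed+, c-kit high, CD34+ and FcγRII high. The leukemia had been passed through mice by serial transplantation, up to quaternary recipients. Whether a group's 3 samples were separate mice, separate cultures or repeats of 1 preparation is not in the labels. The p-values below therefore measure only the spread among the arrays, which may be technical.

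Eosinophils, basophils and mast cells are effector cells of allergy and of the defence against parasites. Their granules carry cationic proteins and proteases, and basophils and mast cells release histamine when IgE bound to the receptor FcεRI is crosslinked by antigen. The lineages arise from myeloid progenitors, where the transcription factor GATA2 is needed for basophil and mast cell development, and GATA factors bind promoters through the letters GATA.

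Between hairpin 97 and hairpin 94 none of the 8 tested member probes passed an adjusted p of 0.05. Of the 8, 7 had a lower mean in hairpin 97, as did 6648 of all 13641 detected probes. The 7 include 2 probes each of Cpa3 and Hdc, and probes of the same gene are not independent. The widest differences belonged to Prg2, which encodes eosinophil major basic protein, and to Hdc, which encodes the enzyme that makes histamine. Against Luc cells, Prg2 and the eosinophil peroxidase gene Epx had lower normalized values with both hairpins, 1 probe of Hdc was lower with hairpin 97, and 2 probes of the mast cell protease gene Cpa3 had higher fitted values with both. These calls against Luc depend on how the arrays are brought to a common scale, which is given with each. The genes of the IgE receptor chains, Fcer1a and Ms4a2, and the basophil protease gene Mcpt8 were detected on none of the 9 arrays.

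The promoters of 4 members are shown: Cpa3, Prg3 and Ms4a2 because they hold the letters GATAA on either strand, and Hdc because 1 of its probes had one of the widest differences between the hairpins. They come from RefSeq on build GRCm38.p6 and run from 250 bases before the annotated start to the first 50 bases of the transcript, 5′ to 3′ on the strand of the gene. The capitals mark GATAA, or TTATC where GATAA lies on the opposite strand, and both strands were searched. Cpa3 lies on the minus strand at chr3:20242132-20242431, Hdc on the minus strand at chr2:126618629-126618928, Prg3 on the plus strand at chr2:84987965-84988264, and Ms4a2 on the minus strand at chr19:11623670-11623969.
Cpa3: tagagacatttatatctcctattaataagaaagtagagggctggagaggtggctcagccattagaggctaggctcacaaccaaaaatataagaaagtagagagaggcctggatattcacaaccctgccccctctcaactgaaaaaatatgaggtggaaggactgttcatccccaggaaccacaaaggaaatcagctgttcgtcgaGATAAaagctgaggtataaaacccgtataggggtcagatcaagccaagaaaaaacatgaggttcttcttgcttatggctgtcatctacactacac
Hdc: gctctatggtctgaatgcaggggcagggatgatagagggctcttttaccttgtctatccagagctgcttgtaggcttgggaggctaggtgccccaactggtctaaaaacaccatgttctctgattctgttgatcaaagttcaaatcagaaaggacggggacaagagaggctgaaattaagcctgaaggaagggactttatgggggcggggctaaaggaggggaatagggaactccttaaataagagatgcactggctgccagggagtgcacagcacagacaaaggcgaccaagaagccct
Prg3: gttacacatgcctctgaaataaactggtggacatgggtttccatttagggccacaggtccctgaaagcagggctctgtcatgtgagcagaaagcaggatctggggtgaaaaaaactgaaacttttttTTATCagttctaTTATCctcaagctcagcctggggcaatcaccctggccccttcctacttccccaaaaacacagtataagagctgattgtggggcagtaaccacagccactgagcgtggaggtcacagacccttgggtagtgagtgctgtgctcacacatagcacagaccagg
Ms4a2: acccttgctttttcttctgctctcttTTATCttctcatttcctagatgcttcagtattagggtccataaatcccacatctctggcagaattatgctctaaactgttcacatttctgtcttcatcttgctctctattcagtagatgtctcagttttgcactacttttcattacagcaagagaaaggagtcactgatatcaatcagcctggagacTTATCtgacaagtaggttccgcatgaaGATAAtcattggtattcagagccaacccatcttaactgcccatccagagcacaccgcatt
The Cpa3 match began at position -45, with the first transcribed base as 0, on the strand of the gene. Prg3 had 2 matches, at -123 and -111, both on the opposite strand. Ms4a2 had 3 matches, at -224 and -37 on the opposite strand and at -10 on its own strand. Fcer1a had 1 match, at -92 on the opposite strand, and Epx, Mcpt8, Hdc and both annotated starts of Gata2 had none. In all, 4 of the 8 member genes with a promoter in the RefSeq table held at least 1 match. Counted by promoter, 4 of 9 held at least 1 match and 2 of 9 at least 2. Over all 32851 promoters of the same length the share was 25.41% for at least 1 match, 5.269% for at least 2 and 0.9376% for at least 3. A match describes the letters and is not a measured binding site.

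The arrays differed in brightness between the groups. The number of detected probes was 13544 ± 601 in hairpin 97, 13507 ± 673 in hairpin 94 and 9956 ± 602 in Luc (SD, n = 3 each). The mean bead signal was 186 ± 13.7 in hairpin 97, 183.5 ± 14.5 in hairpin 94 and 130.3 ± 1.29 in Luc. Normalization gave all arrays the same distribution of values, so a probe could have a higher bead signal in the hairpin arrays and still a lower normalized value. In bulk RNA, fewer cells of a type and less RNA per cell cannot be told apart. As for the labelled cell type, Kit, Fcgr2b, Fcgr3, Hoxa9, Hoxa7, Hoxa5, Meis1 and Mef2c were detected on all 9 arrays and Myb on 8, whereas Hoxa10 and Flt3 were detected on 0. Cd34 was detected on 2 arrays of hairpin 97, 2 of hairpin 94 and 0 of Luc. The Csnk1a1 probe was detected on 0 arrays (detection p 0.293 to 0.862), so the knockdown could not be checked.

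**Figure D1:**
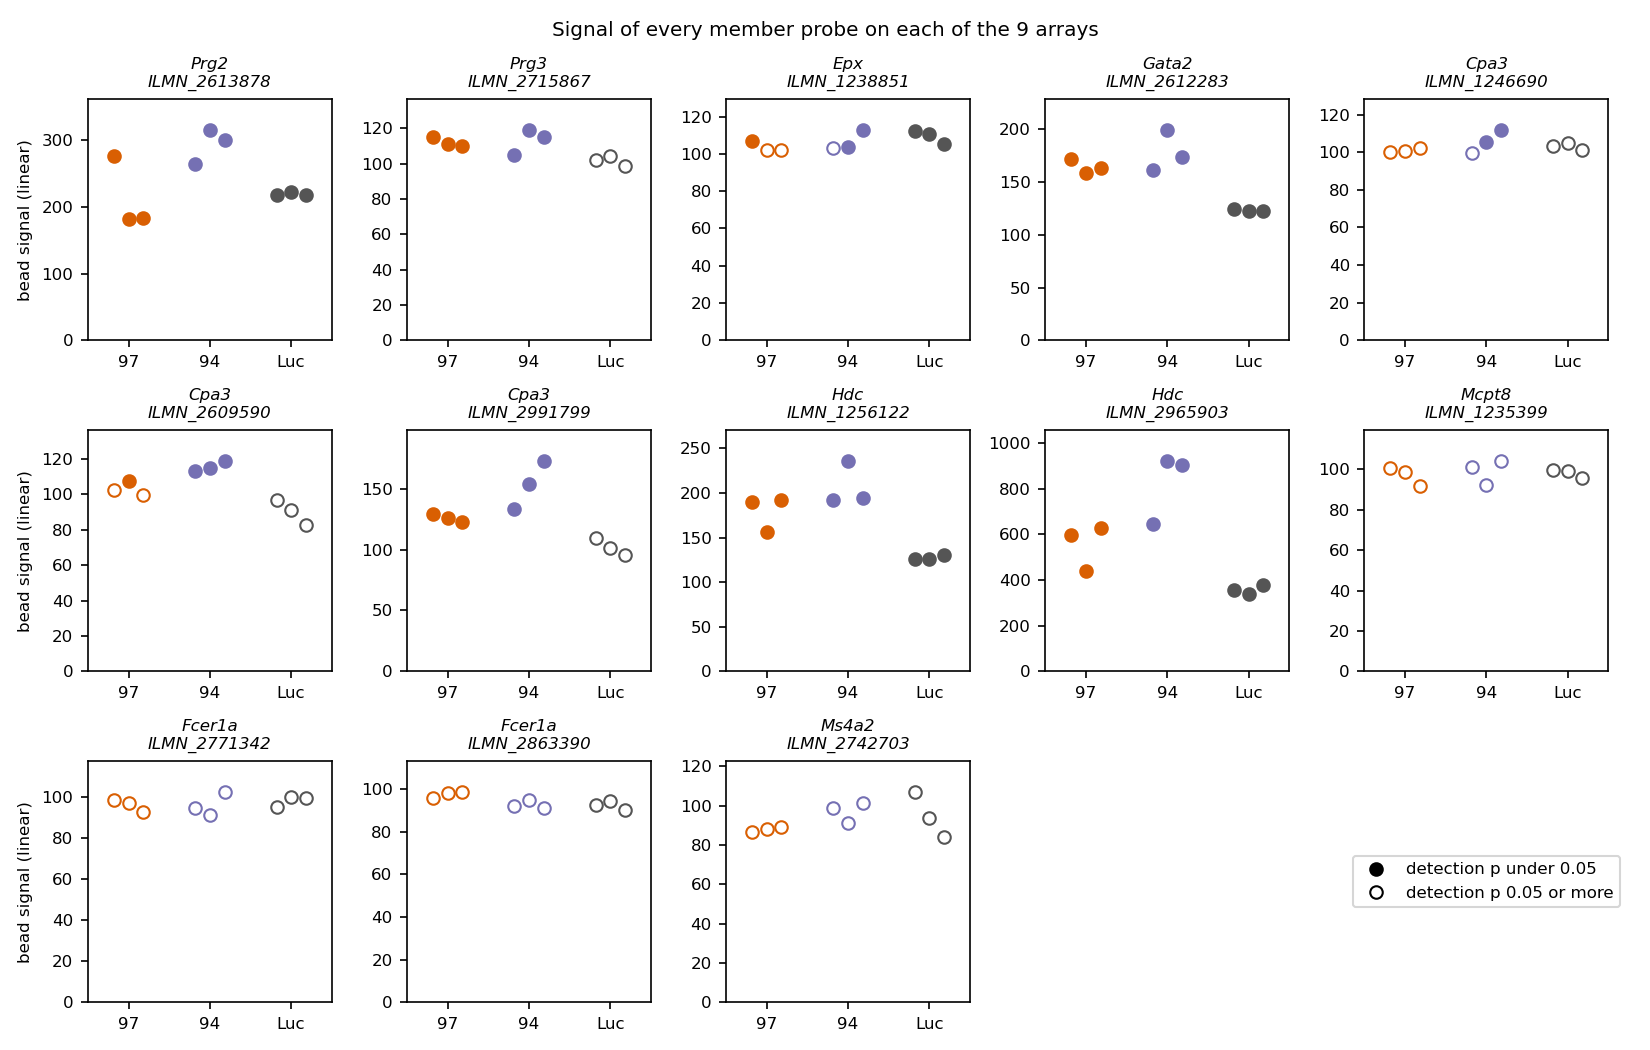
Bead signal (linear, before normalization) of each of the 13 member probes on each array, by group: hairpin 97, hairpin 94 and Luc. Filled points have a detection p under 0.05; Mcpt8, Fcer1a and Ms4a2 have no filled point, and Prg2, Gata2 and both Hdc probes are filled on all 9 arrays.

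Prg2 encodes major basic protein, which forms the crystalline core of the eosinophil granule. Its probe, ILMN_2613878, had bead signals of 276, 183 and 183 on the hairpin 97 arrays, 264, 314 and 300.3 on the hairpin 94 arrays, and 218, 222 and 217 on the Luc arrays, and its detection p was listed at 0 on all 9. In these signals 1 hairpin 97 array lay among the hairpin 94 arrays and the other two lay below every other array. The normalized log2 values were 7.01, 6.58 and 6.41 in hairpin 97, 7.56, 7.30 and 7.44 in hairpin 94, and 8.36, 8.24 and 8.10 in Luc. On this scale the 3 groups did not overlap, with hairpin 97 lowest and Luc highest.

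The log2 fold change of Prg2 in hairpin 97 against hairpin 94 was -0.77 (SE 0.171, 95% confidence interval -1.14 to -0.39), with a limma adjusted p of 0.164 and an unadjusted p of 0.000982. In hairpin 97 against Luc it was -1.56 (limma adjusted p = 0.000329), and in hairpin 94 against Luc -0.80 (limma adjusted p = 0.00584). These 2 comparisons share the Luc arrays. With each array scaled so that the medians over all probes were equal, the Prg2 value against Luc was -0.11 in hairpin 97 (limma adjusted p = 0.695) and 0.63 in hairpin 94 (limma adjusted p = 0.0206), while the median of all detected probes moved to 0.89 and 0.87. Taken relative to that median, Prg2 was at -1.0 in hairpin 97 and at -0.25 in hairpin 94. Relative to the median it lay below 0 against Luc for both hairpins under each of the 6 normalizations run.

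Prg3 encodes a homologue of major basic protein and lies near Prg2 on chromosome 2, where the gene table lists only Gm39868 between them. Its probe, ILMN_2715867, had signals of 115, 111 and 110.0 in hairpin 97, 105, 119 and 115 in hairpin 94, and 102, 104 and 98.6 in Luc. The detection p was 0.00107, 0.00321 and 0.00214 in hairpin 97, 0.0385, 0 and 0.00214 in hairpin 94, and 0.350, 0.184 and 0.160 in Luc. The 2 hairpins overlapped, and every hairpin array lay above the Luc arrays, where the probe was not well above background. The log2 fold change of hairpin 97 against hairpin 94 was 0.0040 (95% confidence interval -0.32 to 0.33, limma adjusted p = 0.998).

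Against Luc the fitted values of Prg3 were 0.43 in hairpin 97 (limma adjusted p = 0.0446) and 0.43 in hairpin 94 (limma adjusted p = 0.0466). No fold is given, because the hairpin means did not exceed the detection floor of the Luc arrays. Both calls were lost when any of the 3 Luc or 3 hairpin 97 arrays was left out, and also without hairpin 94 replicate 3; the hairpin 94 call was lost without hairpin 94 replicate 2 as well. The adjusted p then ran from 0.0512 to 0.120 for hairpin 97 and from 0.0526 to 0.177 for hairpin 94. Neither call held with cyclic loess, at 0.042 in hairpin 97 (limma adjusted p = 0.874) and 0.093 in hairpin 94 (limma adjusted p = 0.706), nor with the deposited log2 values, at 0.096 (limma adjusted p = 0.127) and 0.094 (limma adjusted p = 0.133). Scaling to the median of the probes that all 9 arrays detected turned both calls to lower. The values were then -0.89 in hairpin 97 (limma adjusted p = 0.000185) and -0.81 in hairpin 94 (limma adjusted p = 0.000378).

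Epx encodes eosinophil peroxidase, the granule enzyme that makes hypobromous acid. Its probe, ILMN_1238851, was dim, at 107, 102 and 102 in hairpin 97, 103, 104 and 113 in hairpin 94, and 112, 111 and 105 in Luc. It was detected on 1 hairpin 97 array (detection p 0.00855, 0.100 and 0.0673), on 2 hairpin 94 arrays (0.0641, 0.00427 and 0.00534) and on all 3 Luc arrays (0.0256, 0.0150 and 0.0160). The bead signals overlapped, while the normalized values of both hairpins lay below all Luc values. The log2 fold change of Epx in hairpin 97 against hairpin 94 was -0.13 (95% confidence interval -0.43 to 0.16, limma adjusted p = 0.879). Against Luc it was -0.72 in hairpin 97 (limma adjusted p = 0.00282) and -0.59 in hairpin 94 (limma adjusted p = 0.00769). With arrays scaled over all probes these became -0.13 and 0.04, neither past the threshold, and relative to the median of detected probes Epx lay below 0 under each of the 6 normalizations.

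Cpa3 encodes carboxypeptidase A3, a zinc protease stored in mast cell granules and also made by basophils and their progenitors. Its probe ILMN_2991799 gave 129, 126 and 122 in hairpin 97, 134, 154 and 172 in hairpin 94, and 109.5, 101 and 95.8 in Luc. Every hairpin array detected it, with a detection p listed at 0, and no Luc array did (0.0513, 0.375 and 0.314). All hairpin 97 arrays lay below all hairpin 94 arrays and above all Luc arrays, before and after normalization. The normalized log2 values were 5.26, 5.46 and 5.30 in hairpin 97, 5.76, 5.80 and 6.21 in hairpin 94, and 5.05, 4.40 and 4.42 in Luc.

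The probe ILMN_2609590 of Cpa3 gave 103, 108 and 99.4 in hairpin 97, 113, 115 and 119 in hairpin 94, and 96.8, 91.3 and 83.0 in Luc. It was detected on 1 hairpin 97 array (detection p 0.0588, 0.0118 and 0.144), on all hairpin 94 arrays (0.00214, 0 and 0) and on no Luc array (0.726, 0.925 and 0.964). Its groups stood in the same order as those of the first probe, again with no overlap. The probe ILMN_1246690 gave 100.05, 100.4 and 102 in hairpin 97, 99.6, 105 and 112 in hairpin 94, and 103, 105 and 101 in Luc. It passed detection only on 2 hairpin 94 arrays (detection p 0.00107 and 0.00534, against 0.0620 to 0.290 on the other 7) and was not tested.

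In hairpin 97 against hairpin 94 the log2 fold change of Cpa3 was -0.58 by ILMN_2991799 (SE 0.197, 95% confidence interval -1.02 to -0.15, limma adjusted p = 0.388) and -0.45 by ILMN_2609590 (SE 0.131, 95% confidence interval -0.74 to -0.16, limma adjusted p = 0.290). The probe ILMN_2991799 was at least 1.31-fold higher in hairpin 97 than in Luc (limma adjusted p = 0.0184) and at least 1.97-fold higher in hairpin 94 than in Luc (limma adjusted p = 0.00117). Each bound sets the hairpin mean against the detection floor of the Luc arrays, where the probe had no detected value, and the probe entered the test only through the hairpin arrays. With cyclic loess its fitted value was 0.025 in hairpin 97 against Luc (limma adjusted p = 0.935) and 0.70 in hairpin 94 against Luc (limma adjusted p = 0.00574). The hairpin 97 call was lost without hairpin 97 replicate 5 (adjusted p = 0.0689) or replicate 6 (adjusted p = 0.0521). By ILMN_2609590 Cpa3 was at least 1.09-fold higher in hairpin 94 than in Luc (limma adjusted p = 0.00122). This probe also entered the test only through the hairpin arrays, 3 of hairpin 94 and 1 of hairpin 97, so its calls against Luc support nothing. The bounds of both probes hold only under the reported normalization. In hairpin 97 against Luc the fit of this probe also passed (0.40, limma adjusted p = 0.0365), with a mean under the floor, and it did not pass without Luc replicate 2 or 3 or hairpin 97 replicate 4 or 5 (adjusted p = 0.0662 to 0.143) or with cyclic loess (0.12, limma adjusted p = 0.580). Scaling to the median of the probes that all 9 arrays detected changed the values against Luc of both probes. ILMN_2991799 was then at -0.41 in hairpin 97 (limma adjusted p = 0.0673) and 0.28 in hairpin 94 (limma adjusted p = 0.205). ILMN_2609590 was at -1.05 in hairpin 97, past the threshold as lower (limma adjusted p = 0.0004), and at -0.44 in hairpin 94 (limma adjusted p = 0.0644).

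Mcpt8 encodes mast cell protease 8, which in the mouse marks basophils. Its probe ILMN_1235399 had signals of 91.6 to 101 in hairpin 97, 92.4 to 104 in hairpin 94 and 95.7 to 99.9 in Luc. The detection p was 0.107, 0.237 and 0.662 in hairpin 97, 0.134, 0.321 and 0.0823 in hairpin 94, and 0.490, 0.490 and 0.325 in Luc, so the probe was not above background on any array.

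Hdc encodes histidine decarboxylase, the only enzyme of histamine synthesis, and it had 2 probes. The probe ILMN_2965903 gave 598, 441 and 627 in hairpin 97, 645, 919 and 904 in hairpin 94, and 357, 337 and 378 in Luc, with a detection p listed at 0 on all 9 arrays. In bead signal every hairpin 97 array lay below every hairpin 94 array and above every Luc array. The normalized log2 values were 8.39, 8.39 and 8.81 in hairpin 97, 9.20, 9.11 and 9.36 in hairpin 94, and 9.40, 9.09 and 9.20 in Luc. On this scale hairpin 97 lay below both other groups, which overlapped.

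The log2 fold change of Hdc by ILMN_2965903 in hairpin 97 against hairpin 94 was -0.70 (SE 0.160, 95% confidence interval -1.05 to -0.34, limma adjusted p = 0.176). In hairpin 97 against Luc it was -0.70 (limma adjusted p = 0.00760), and in hairpin 94 against Luc it was -0.0017 (95% confidence interval -0.35 to 0.35, limma adjusted p = 0.995). With arrays scaled over all probes the value in hairpin 97 against Luc was 0.75 (limma adjusted p = 0.00458), which is -0.14 relative to the median of detected probes.

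The probe ILMN_1256122 of Hdc gave 189.9, 156 and 192 in hairpin 97, 192, 235 and 194 in hairpin 94, and 126, 126 and 129.9 in Luc, also with a detection p listed at 0 on all arrays. Its hairpin 97 signals were all below its hairpin 94 signals, by little for 2 of the arrays, and after normalization the 2 hairpins overlapped. The log2 fold change was -0.38 in hairpin 97 against hairpin 94 (95% confidence interval -0.72 to -0.04, limma adjusted p = 0.520). It was -0.19 in hairpin 97 against Luc (limma adjusted p = 0.369) and 0.19 in hairpin 94 against Luc (limma adjusted p = 0.371). The fall with hairpin 97 against Luc seen with ILMN_2965903 was not called with this probe.

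Fcer1a and Ms4a2 encode the alpha and beta chains of FcεRI, the receptor that binds IgE with high affinity. Fcer1a had 2 probes, with signals of 91.4 to 102 for ILMN_2771342 and 90.0 to 98.5 for ILMN_2863390 over all 9 arrays. The detection p of ILMN_2771342 was 0.181, 0.325 and 0.537 in hairpin 97, 0.507, 0.419 and 0.124 in hairpin 94, and 0.813, 0.431 and 0.110 in Luc. That of ILMN_2863390 was 0.369, 0.254 and 0.184 in hairpin 97, 0.715, 0.186 and 0.816 in hairpin 94, and 0.901, 0.807 and 0.723 in Luc. Neither probe was above background on any array. The Ms4a2 probe ILMN_2742703 gave 86.5, 88.4 and 89.0 in hairpin 97 (detection p 0.952, 0.907 and 0.832), 98.8, 91.2 and 101 in hairpin 94 (0.222, 0.437 and 0.177), and 107, 93.9 and 84.3 in Luc (0.116, 0.829 and 0.940). Its hairpin 97 signals lay below the hairpin 94 signals, but all 9 were at background. When all probes were tested without a detection filter, none of the 5 untested member probes passed in any comparison (lowest limma adjusted p = 0.245, Fcer1a by ILMN_2863390 in hairpin 97 against Luc).

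Gata2 encodes a zinc finger transcription factor of blood progenitors, basophils and mast cells. Its probe ILMN_2612283 gave 172, 158 and 164 in hairpin 97, 161, 199 and 174 in hairpin 94, and 124, 123 and 123 in Luc, with a detection p listed at 0 on all 9 arrays. The bead signals of both hairpins lay above Luc and overlapped each other. The normalized log2 values were 6.00, 6.21 and 6.15 in hairpin 97, 6.37, 6.39 and 6.23 in hairpin 94, and 6.44, 6.22 and 6.39 in Luc. Hairpin 97 lay just below both other groups on this scale.

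The log2 fold change of Gata2 was -0.21 in hairpin 97 against hairpin 94 (95% confidence interval -0.50 to 0.09, limma adjusted p = 0.756), -0.23 in hairpin 97 against Luc (limma adjusted p = 0.206) and -0.02 in hairpin 94 against Luc (limma adjusted p = 0.912). With arrays scaled over all probes it was 1.05 and 1.25 against Luc, past the threshold in both (limma adjusted p = 0.000114 and 1.22e-05). These values were 0.16 and 0.37 above the median of detected probes. Scaled to the median of the probes that every array detected, Gata2 was at -0.41 in hairpin 97 against Luc (limma adjusted p = 0.0243). That value passed the threshold as lower. In hairpin 94 against Luc it was then -0.17 (limma adjusted p = 0.333). The sign of Gata2 against Luc thus depended on the scaling.

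**Figure D2:**
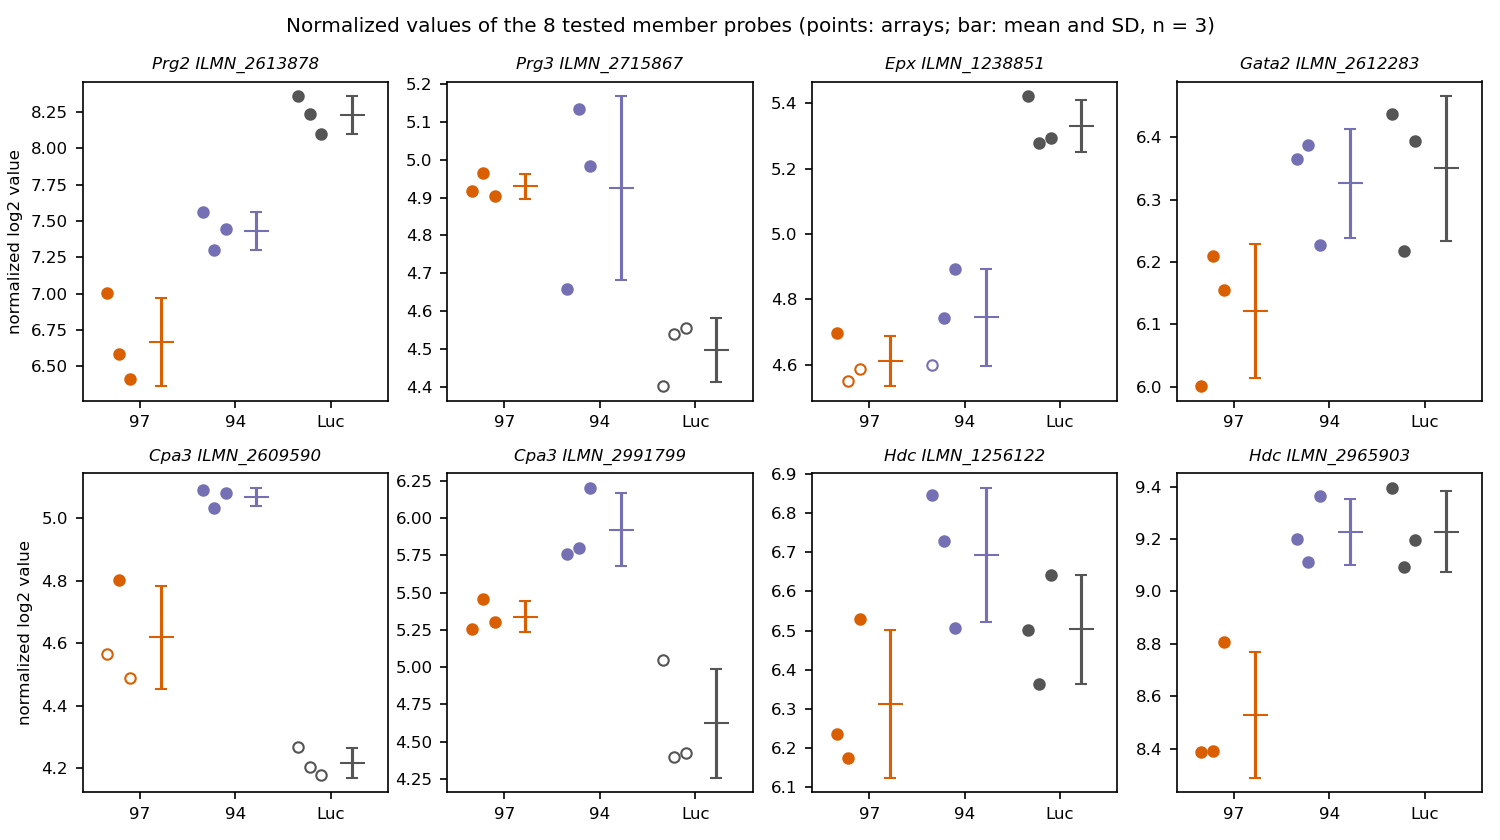
Normalized log2 values of the 8 tested member probes on each array in hairpin 97, hairpin 94 and Luc, with the mean and SD of each group (n = 3); open points are arrays where the probe was not detected, and each panel has its own axis range. Prg2 falls into 3 separate groups, Hdc by ILMN_2965903 is lowest in hairpin 97, and both Cpa3 probes are open on all Luc arrays.

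In hairpin 97 against hairpin 94 the test called 19 of all 13641 detected probes, 0.139% (4 higher, 0.0293%, and 15 lower, 0.11%), and 0 of the 8 tested member probes. An unadjusted p under 0.05 was found for 5 of the 8, all lower in hairpin 97: Prg2, both Cpa3 probes and both Hdc probes. Over all 13641 detected probes it was found for 597 lower and 569 higher. The median log2 fold change of the 8 was -0.42, beside 0.0063 over all detected probes. Because the members were chosen with earlier results of these data known, the median and the counts here only describe them. The 3 hairpin 97 values lay below the 3 hairpin 94 values for 5 of the 8 probes, which were Prg2, Gata2, Hdc by ILMN_2965903 and both Cpa3 probes; over all detected probes 9.7% did. No member probe lay wholly above, as 10.5% of all detected probes did. In the deposited log2 values it was also 5, and in the bead signals 4. The tested probes are those bright enough to be detected, and probes of 1 gene are not independent. Cpa3 by ILMN_2609590, counted in both sets of 5, was detected on 3 hairpin 94 arrays, 1 hairpin 97 array and 0 Luc arrays. It entered the test only through hairpin 94, where it was higher, so its place in these counts supports nothing.

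Against Luc, 6 of the 8 tested member probes passed in hairpin 97, 3 higher and 3 lower, beside 32.9% of all detected probes (20.6% higher and 12.3% lower). In hairpin 94 against Luc 5 passed, 3 higher and 2 lower, beside 32.4% of all detected probes (20% higher and 12.3% lower). In hairpin 97 against Luc the values of 4 member probes lay wholly below those of Luc and 3 wholly above, beside 17.2% and 28.9% of all detected probes. In hairpin 94 against Luc 2 lay wholly below and 3 wholly above, beside 16.2% and 26.7%. The 3 higher ones, Prg3 and 2 Cpa3 probes, were detected on no Luc array and entered the test only through the hairpin arrays, so their count supports nothing. Of all probes past the threshold 62.6% were higher in hairpin 97 than in Luc, and this share was 14.8% with scaling to the median of the probes that all 9 arrays detected, 99.9% with scaling over all probes and 48.3% with cyclic loess. For hairpin 94 against Luc it was 62.0%, and 14.9%, 99.9% and 49.0% with these alternatives. Prg2 was lower than the median of detected probes against Luc under all of them.

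**Figure D3:**
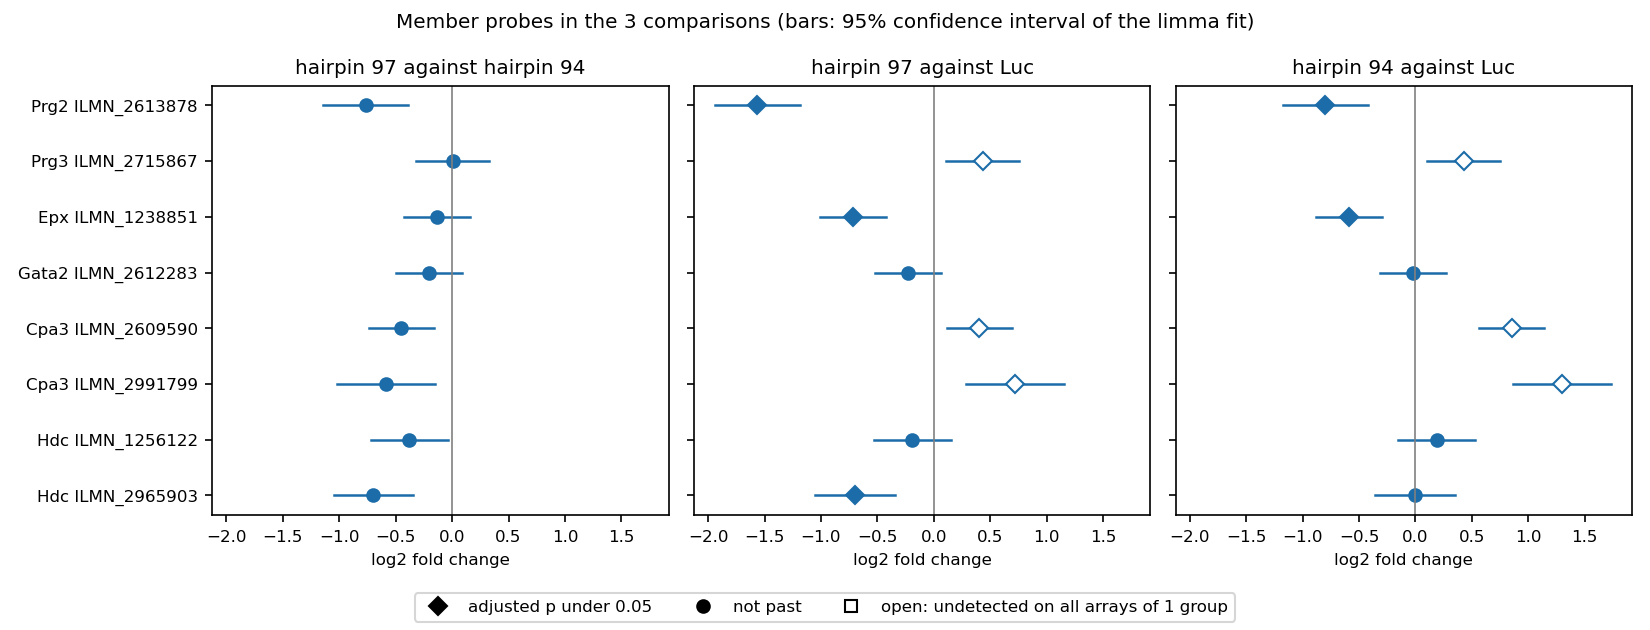
Log2 fold change (horizontal axis) of the 8 tested member probes in hairpin 97 against hairpin 94, hairpin 97 against Luc and hairpin 94 against Luc, with 95% confidence intervals of the limma fit. Diamonds have an adjusted p under 0.05 and open symbols mark probes undetected on all arrays of a group. The left panel has no diamond and 7 of its 8 values below 0, where 6648 of all 13641 detected probes also lay.

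The call on Prg2 and Hdc between the hairpins depended on the processing. With no background correction the limma adjusted p was 0.0409 for Prg2 and 0.0267 for Hdc by ILMN_2965903, with log2 fold changes of -0.47 and -0.59. With the deposited log2 values it was 0.0418 and 0.0260, with cyclic loess 0.0215 and 0.0302, among probes detected on every array 0.0456 and 0.0495, and in a fit of only the 2 groups 0.0402 and 0.0433. With an offset of 50 Hdc passed at 0.0490 and Prg2 did not. The fold changes of both were below 0 in all 20 alternatives, from -0.93 to -0.37 for Prg2 and from -0.84 to -0.53 for Hdc, and with any 1 array left out neither passed.

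**Figure D4:**
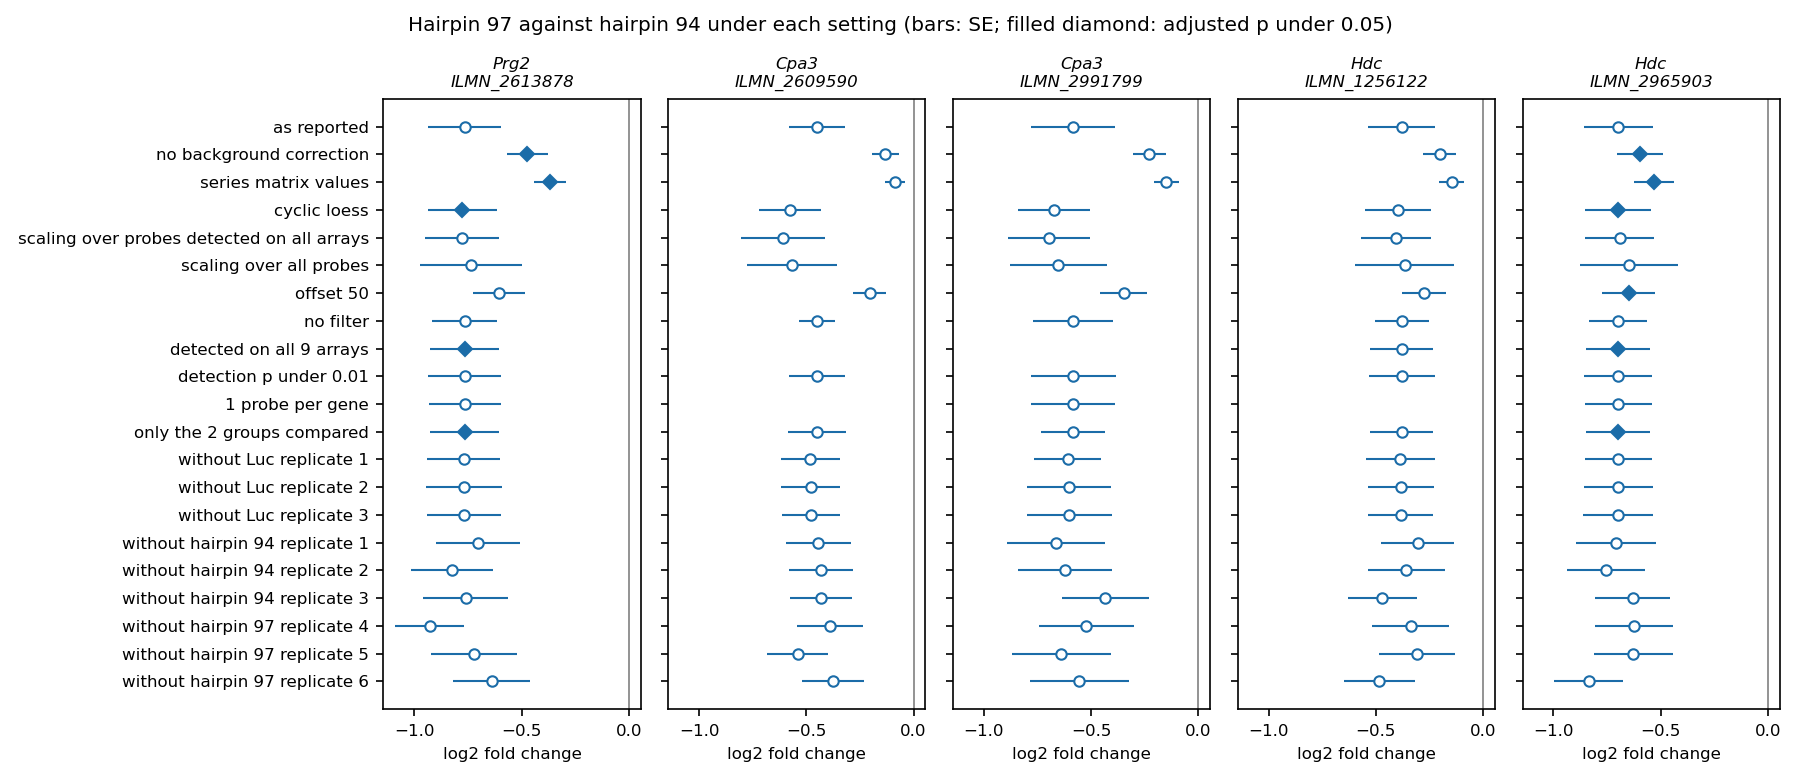
Log2 fold change of hairpin 97 against hairpin 94 for the Prg2, Cpa3 and Hdc probes (horizontal axis) under each setting (rows), with the standard error; filled diamonds have an adjusted p under 0.05. Prg2 passes in 5 alternatives and Hdc by ILMN_2965903 in 6, and every point shown lies below 0; a missing point means the probe was not in that fit.

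The other genes of these lineages, from lists of textbook markers, were mostly near or under detection. Of the eosinophil relatives 8 of 15 genes were on the array and 0 were detected on all 9 arrays; Il5ra, which encodes the interleukin 5 receptor chain of eosinophils, was detected on 0. The 2 tested probes, of Adgre1 and Ear6, passed in no comparison (limma adjusted p 0.0600 or more against Luc, and 0.544 or more between the hairpins). Of the mast cell and basophil granule and mediator genes 22 of 23 were on the array, 5 were detected on all 9 arrays and 8 on 0. The 8 were Tpsab1, Cma2, Mcpt4, Mcpt9 and Prss34, which encode tryptases, chymases and related proteases, with Gzmb, Slc18a2 and Ltc4s. The 5 were Ctsg, Srgn, Alox5, Alox5ap and Ndst2, which neutrophils and other myeloid cells also express.

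None of the tested probes of these lists passed in hairpin 97 against hairpin 94. Falls as wide as those of Prg2 and Hdc were also found outside the members. Examples, none past the threshold, were Lat2 by ILMN_3143483 (-0.97), Alox5 by ILMN_1221016 (-0.90) and the neutrophil marker Mpo by ILMN_2925094 (-0.79). Values above 0 were found for 4 of 10 mast cell and basophil probes and 4 of 16 IgE receptor probes. They were found for 7 of 14 transcription factor probes and 6 of 12 neutrophil marker probes. The counts were 0 of 2 for eosinophil relatives, 1 of 7 for monocyte and macrophage markers and 3 of 4 for erythroid and megakaryocyte markers. For lymphoid markers it was 0 of 1, and for the leukemia stem cell gate and MLL-AF9 program 8 of 19. Of all 13641 detected probes 6993 had values above 0. Among the 10 tested probes of mast cell and basophil granule and mediator genes, 1 was higher and 0 lower in hairpin 97 against Luc, and 3 were higher and 0 lower in hairpin 94 against Luc; over all detected probes 20.6% were higher and 12.3% lower in hairpin 97, and 20% and 12.3% in hairpin 94. All were probes of Alox5, the 5-lipoxygenase gene of leukotriene synthesis. By ILMN_1221016 the Alox5 log2 fold change was 0.79 in hairpin 97 (limma adjusted p = 0.0146) and 1.69 in hairpin 94 (limma adjusted p = 0.000531), and it was above 0 under each scaling. By ILMN_2928453 it was 1.07 in hairpin 94 (limma adjusted p = 0.00212). The third probe, ILMN_2607112, was detected on no Luc array and entered the test only through the hairpin arrays. Its place in the count of 3 therefore supports nothing. Its fitted 0.59 in hairpin 94 became -0.65 with scaling to the median of the probes that all 9 arrays detected.

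Of the IgE receptor signalling and surface genes 12 of 21 on the array had a tested probe, and 1 of 16 probes was higher and 5 lower in hairpin 97 against Luc, while 2 were higher and 2 lower in hairpin 94 against Luc. Over all detected probes the shares were 20.6% higher and 12.3% lower in hairpin 97, and 20% and 12.3% in hairpin 94, and the hairpin 94 counts are near them. Fcer1g, which encodes the gamma chain shared with other Fc receptors, was detected on 0 arrays, as was the kinase gene Syk. The adaptor gene Lat2 was at -1.35 by ILMN_3143483 in hairpin 97 (limma adjusted p = 0.000898), and its other probe ILMN_2473562 was at 0.66 in hairpin 94 (limma adjusted p = 0.0357), turning to -0.41 with scaling to the median of the probes that all 9 arrays detected. The activation marker gene Cd69 was at -1.12 in hairpin 97 (limma adjusted p = 0.00102) and -0.69 in hairpin 94 (limma adjusted p = 0.00976). Il3ra, the alpha chain of the interleukin 3 receptor that basophils depend on, was at -0.78 in hairpin 97 (limma adjusted p = 0.0151) and -0.71 in hairpin 94 (limma adjusted p = 0.0238). With arrays scaled over all probes, Lat2 by ILMN_3143483, Cd69, Il3ra and Cd63 by ILMN_3128907 had values above 0. The granule membrane gene Cd63 was at 0.84 in hairpin 97 (limma adjusted p = 0.0157) and 0.69 in hairpin 94 (limma adjusted p = 0.0375) by ILMN_3052430, while ILMN_3128907 was at -0.51 in hairpin 97 (limma adjusted p = 0.0280). Its remaining probe, ILMN_2653617, passed with neither hairpin, at 0.17 in hairpin 97 (limma adjusted p = 0.413) and 0.36 in hairpin 94 (limma adjusted p = 0.0979).

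Of the transcription factor genes of these lineages, 4 of 14 tested probes were higher and 1 lower in each hairpin against Luc, which is near the shares over all detected probes (20.6% higher and 12.3% lower in hairpin 97, 20% and 12.3% in hairpin 94). Gata1 was detected on 1 array, and Mitf, which encodes a regulator of mast cells, on 0. Cebpe, which encodes a factor of terminal granulocyte maturation that eosinophils also need, was higher by 3 probes, the largest being ILMN_3103062 at 0.91 in hairpin 97 (limma adjusted p = 0.00132) and ILMN_3029849 at 0.76 in hairpin 94 (limma adjusted p = 0.00302). Its remaining probe, ILMN_2528453, did not pass, at 0.50 in hairpin 97 (limma adjusted p = 0.0593) and 0.014 in hairpin 94 (limma adjusted p = 0.962). Cebpd was at 0.93 in hairpin 97 (limma adjusted p = 0.0390) and Lmo2 at 0.57 in hairpin 94 (limma adjusted p = 0.00930). The lower one was Ldb1, a cofactor gene, at -0.45 in hairpin 97 (limma adjusted p = 0.0215) and -0.42 in hairpin 94 (limma adjusted p = 0.0291), which turned to 0.98 and 0.97 with arrays scaled over all probes.

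Counts for markers of other cells follow, beside the shares of all detected probes given above (20.6% higher and 12.3% lower in hairpin 97 against Luc, 20% and 12.3% in hairpin 94 against Luc). Of 12 tested neutrophil marker probes 7 were higher and 0 lower in hairpin 97 against Luc. In hairpin 94 against Luc 10 were higher and 0 lower. Both counts hold 1 Ltf probe, ILMN_2754364, that was detected on no Luc array. It entered the test only through the hairpin arrays, so its place in the counts supports nothing. With scaling to the median of the probes that all 9 arrays detected it lay below 0 for both hairpins. All 4 Mpo probes were among the higher ones in hairpin 94, and only ILMN_2600421 of them in hairpin 97. Probes of 1 gene are not independent. The summed bead signal of the list was 38964 to 48396 in hairpin 97, 39479 to 52990 in hairpin 94 and 13816 to 16132 in Luc, and of its genes Mmp8 was detected on 0 arrays. Of 7 tested monocyte and macrophage probes 2 were higher in hairpin 97 and 4 in hairpin 94, each against Luc, with 0 lower. Lyz2 by ILMN_2939681, counted for both hairpins, was detected on no Luc array and likewise entered only through the hairpin arrays. With the scaling used for Ltf, this Lyz2 probe in both hairpins and F13a1 in hairpin 94 lay below 0. The summed signal was 3112 to 3804 in hairpin 97, 3165 to 4304 in hairpin 94 and 1699 to 1766 in Luc. These sums are not normalized, and the Luc arrays were dimmer over all probes. For the mast cell and basophil granule and mediator list the sum was also lowest in Luc, at 7222 to 8446. It was 12911 to 15559 in hairpin 97 and 13192 to 17761 in hairpin 94. Of 4 tested erythroid and megakaryocyte probes 0 were higher and 1, of Tfrc, was lower in each hairpin against Luc. The 1 tested lymphoid probe, of Nkg7, was lower in hairpin 97 against Luc and did not pass in hairpin 94 against Luc. Tfrc and Nkg7 had values above 0 with arrays scaled over all probes. Of 19 tested probes of the leukemia stem cell gate and MLL-AF9 program 3 were higher and 3 lower in hairpin 97 against Luc, and 3 were higher and 1 lower in hairpin 94 against Luc. All the lower ones turned above 0 with arrays scaled over all probes: Hoxa5 (0.22 in hairpin 97, 0.38 in hairpin 94), Kit (0.99) and Mef2c (0.59). Of the higher ones, Fcgr2b by ILMN_3102376 turned to -0.22 in hairpin 97 and -0.35 in hairpin 94 with scaling to the probes that all 9 arrays detected. The part of the cells marked by these lists in the member values was not tested.

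For the 4 member probes detected on all 9 arrays, the probes of other genes with the most similar normalized profile were found by Pearson correlation over the 9 arrays, among 6026 to 6027 candidates. For Prg2 they were Emilin2 (0.980), Usp46 (0.980) and Ier3 (0.979), for Gata2 App (0.884), Rilpl2 (0.867) and Trim21 (0.860). For Hdc they were Ttc3 (0.974), Tbc1d2 (0.945) and Ift172 (0.940) by ILMN_2965903, and Becn1 (0.883), Gramd1b (0.876) and Nt5e (0.841) by ILMN_1256122. The points are the same 9 arrays in 3 groups, so any probe with similar group means correlates. Among the members themselves the 2 Hdc probes correlated at 0.695, Prg2 with Hdc by ILMN_2965903 at 0.727, and Gata2 with it at 0.753.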

How the data were processed

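Total RNA of 9 sorted leukemia samples was labelled with biotin and run on Illumina bead arrays, per the labels' protocols. The authors deposited a bead intensity (signal) for each probe on each array, with its detection p-value, per the file headers. They also deposited log2 values that ranked the probes of each array as the signals did (smallest rank correlation 1) and shared 1 distribution, with a median of 6.61 in every column, so they look quantile normalized and not centred per probe. The authors' software is not given in the sources used here. Neither slides nor scan dates are named, which leaves no batch to test. Columns of the files were matched to samples by name.

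The neqc function of limma 3.58.1 (R 4.3.3) corrected the background, taken from the detection p-values, added an offset of 16, quantile normalized and took log2. Group means over the 9 arrays were fitted with lmFit, tested with eBayes and adjusted by Benjamini-Hochberg over 13641 detected probes. All adjusted p-values of the text are from this limma fit or its stated alternatives. The fit was tested on simulated data. The number of arrays, 3 a group, limits the precision, and background correction and offset stretch or shrink changes of dim probes.

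The platform table gave 34885 probes 1 symbol, 18 several and 10378 none. Every member probe is reported. From the lineage lists the text names up to 3 probes past the threshold with the largest change in each comparison against Luc. Single ones named for being undetected, disagreeing, alone in their direction or widely apart between the hairpins were chosen after their values were seen. The neutrophil, monocyte and other marker lists are given as counts, and single probes named from them were also chosen after their values were seen. Where a probe was undetected on all arrays of a group, a bound replaces the fold. Alternatives were another or no background correction, offset, normalization, filter, 1 probe per gene, 2 groups alone, a replicate block and each array left out. Scaling over all probes was added after seeing the data. Promoters are from RefSeq; 8 of 9 members matched, and Prg2 was not among them. The members and lists were chosen with earlier results of these data known.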

Additional observations from a re-analysis of the deposited data

How the results depend on the processing

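Between hairpin 97 and hairpin 94, the 19 detected probes past the threshold became 140 with no background correction, 155 with the deposited log2 values, 190 with cyclic loess, 68 with scaling to the probes that all arrays detected, 87 with offset 50, 8 with no filter, 89 over probes detected on all 9 arrays, 34 with 1 probe per gene and 135 with only the 2 groups. Member probes past the threshold, 0 as reported, numbered 2 with no background correction, the deposited values, cyclic loess, probes detected on all 9 arrays and only the 2 groups, and 1 with offset 50. Leaving out 1 array gave 0 to 31 detected probes (0 without hairpin 94 replicate 1 or 3 or hairpin 97 replicate 4 or 5, 2 without hairpin 97 replicate 6, 11 without hairpin 94 replicate 2 and 31 without Luc replicate 1) and 0 member probes. For hairpin 97 against Luc, the 4487 detected probes became 9215 with scaling to the probes that all arrays detected, 9420 with scaling over all probes and 2888 with 1 probe per gene, and the 6 member probes became 3 with cyclic loess, 2 over probes detected on all 9 arrays and 3 to 6 with 1 array left out (3 without hairpin 97 replicate 5). For hairpin 94 against Luc, the 4413 detected probes became 8998, 9351 and 2847 under the first 3 of these, and the 5 member probes became 3 with the deposited values, cyclic loess or scaling to the probes that all arrays detected and 1 over probes detected on all 9 arrays. The last filter leaves fewer probes to test; the other causes were not tested.

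Replicate numbers 1 to 3 are shared by hairpin 94 and Luc. Same-numbered arrays deviated from their group means with correlations of 0.0678, 0.0486 and 0.141, and hairpin 94 replicate 2 correlated best with another number, so the numbers were not taken as pairs. With a replicate block 2579 detected probes and 3 member probes passed in hairpin 94 against Luc; Epx (adjusted p = 0.0584) and Prg3 (adjusted p = 0.112) did not. Hairpin 97 shares no number with either group, so no other block could be fitted.

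Of 470 single-probe values under alternatives, 386 kept direction and side of the threshold, 46 lost it, 13 gained it and 25 changed sign. Between the hairpins Prg3 changed sign with no background correction (-5.37e-05), cyclic loess (-0.0514), both scalings (-0.0788 with probes that all arrays detected, -0.0364 with all probes), offset 50 (-0.0015) and with 1 array left out (-0.131 to 0.0979). With scaling to the probes that all arrays detected, in hairpin 97 against Luc Prg3 was at -0.89 and Cpa3 at -1.05 (ILMN_2609590) and -0.41 (ILMN_2991799), and in hairpin 94 against Luc Prg3 was at -0.81 and Cpa3 by ILMN_2609590 at -0.44. Of these, Prg3 in both hairpins and Cpa3 by ILMN_2609590 in hairpin 97 passed the threshold as lower. With scaling over all probes, in hairpin 97 against Luc Gata2 was at 1.05 and Hdc at 1.14 (ILMN_1256122) and 0.75 (ILMN_2965903), and in hairpin 94 against Luc Prg2 was at 0.63, Epx at 0.0415, Gata2 at 1.25 and Hdc by ILMN_2965903 at 1.40. In hairpin 94 against Luc, values near 0 also changed sign for Hdc by ILMN_2965903 with cyclic loess (0.0023) and with 1 array left out (-0.0712 to 0.0824), and for Gata2 with 1 array left out (-0.0912 to 0.0264). Prg3, Epx and Cpa3 by ILMN_2609590 lay close to background, which limits their fold changes.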
